A study of Homo sapiens with 6 samples.

Results

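The genes described here are the 9 members of the serine and one-carbon pathway that the array carries under the names PHGDH, PSAT1, PSPH, SHMT1, SHMT2, MTHFD1, MTHFD2, MTHFD1L and ALDH1L2, out of 43317 gene names. Their probes were found by gene name, and all 12 of them were used. The genes themselves were chosen with earlier results of these data known. All samples came from 22RV1, a long-established human line of prostate carcinoma, stably carrying a lentiviral construct and kept under puromycin: pLemiR-338-5p, pLemiR-421, or pLemiR-RFP for the control, which makes a red fluorescent protein. On each of 6 Agilent arrays, RNA of a microRNA line in the dye Cy5 was set against RNA of the control line in Cy3, in the same dye orientation throughout. The miR-338-5p line had samples labelled with the letter C and the numbers 1, 2 and 3. The miR-421 line had a sample labelled pool and samples labelled with the letter C and the numbers 1 and 2. The numbered samples are called replicates here. The labels do not say what the letter C means or what was pooled. They also do not say whether the lines or the numbered samples were clones, or whether replicates were separate cultures. The p-values therefore measure the spread between these samples, which may be technical. Every value below is a log2 ratio of the microRNA line over control unless a signal is named. A value of 1 is a doubling in the microRNA line.

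Serine is made from a glycolytic intermediate, 3-phosphoglycerate, in a short chain of reactions run by PHGDH, PSAT1 and PSPH. SHMT enzymes then move a carbon unit from serine to the folate carrier and leave glycine. Folate-bound carbon units are used to build purines and thymidylate and to remake methionine. The cytosol and the mitochondrion each hold a version of this pathway, and the mitochondrial enzymes usually run it from serine to formate, which leaves for the cytosol. Transcription of several of these genes is known to be raised by ATF4, the main transcription factor of the amino acid and endoplasmic reticulum stress responses.

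The mature sequences of both microRNAs are shown because the constructs of the lines are named for them. They are from RefSeq (GRCh38.p14), with the seed, bases 2 to 8, in capitals.
hsa-miR-338-5p: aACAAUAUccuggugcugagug
hsa-miR-421: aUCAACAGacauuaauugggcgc
The seeds differ, so the lines share no seed. The levels of the mature microRNAs were not analysed here.

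Between 44.3% and 47.9% of the gene spots stood well above background in Cy3, and between 41.9% and 48.3% in Cy5, with miR-421 replicate 1 lowest in Cy5, and no spot was saturated. Of 10 luminal prostate markers, 10 were well above background in the control dye on all arrays, with mean log2 signals of 7.14 to 14.06. None of 3 basal markers was (0 of 3; 5.74 to 5.85). For fibroblast markers it was 3 of 5 (5.78 to 6.97), for endothelial markers 2 of 3 (5.80 to 6.66) and for leukocyte markers 4 of 4 (6.07 to 7.13). Array-wide ratios correlated at 0.478 to 0.613 within the miR-338-5p line, 0.637 to 0.823 within the miR-421 line and 0.337 to 0.594 across them. SPINK1, the secreted trypsin inhibitor of the series title, was at -3.04, -2.10 and -6.78 on miR-338-5p replicates 1, 2 and 3, and at -7.01, -6.68 and -6.15 on the miR-421 pool and replicates 1 and 2. The arrays of the miR-338-5p line therefore differed among themselves, with replicate 3 within the range of the miR-421 arrays.

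All 12 member probes were well above background in both dyes on all 6 arrays. In Cy3, 4 of 4 leukocyte markers passed this flag too, so it does not by itself show expression. In the miR-421 line 6 of the 9 genes passed the test as higher than control and 1 as lower, against 9.19% and 12.5% of all tested probes. In the miR-338-5p line 3 were higher and 1 lower, against 3.79% and 5.22% of all probes. PSPH, SHMT2 and MTHFD2 rose and MTHFD1 fell in both lines, where 1.83% and 4.07% of probes did so. Both comparisons use control RNA in Cy3, so they are not independent of each other. The median over the 9 genes was 0.56 with miR-338-5p and 0.66 with miR-421, beside -0.0027 and 0.0015 over all probes. The miR-338-5p calls did not survive the loss of any array of that line: 0 of 12 refits passed, with limma adjusted p-values of 0.054 to 0.129 and the same sign in 12 of 12. Over all 18 alternatives run, the miR-338-5p call passed in 9 for PSPH, 8 for SHMT2, 6 for MTHFD2 and 5 for MTHFD1, with the same sign in each. For miR-421, 7 of 21 refits without an array of its own line passed, with adjusted p-values of 0.0228 to 0.155 and the same sign in 21 of 21.

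**Figure D1:**
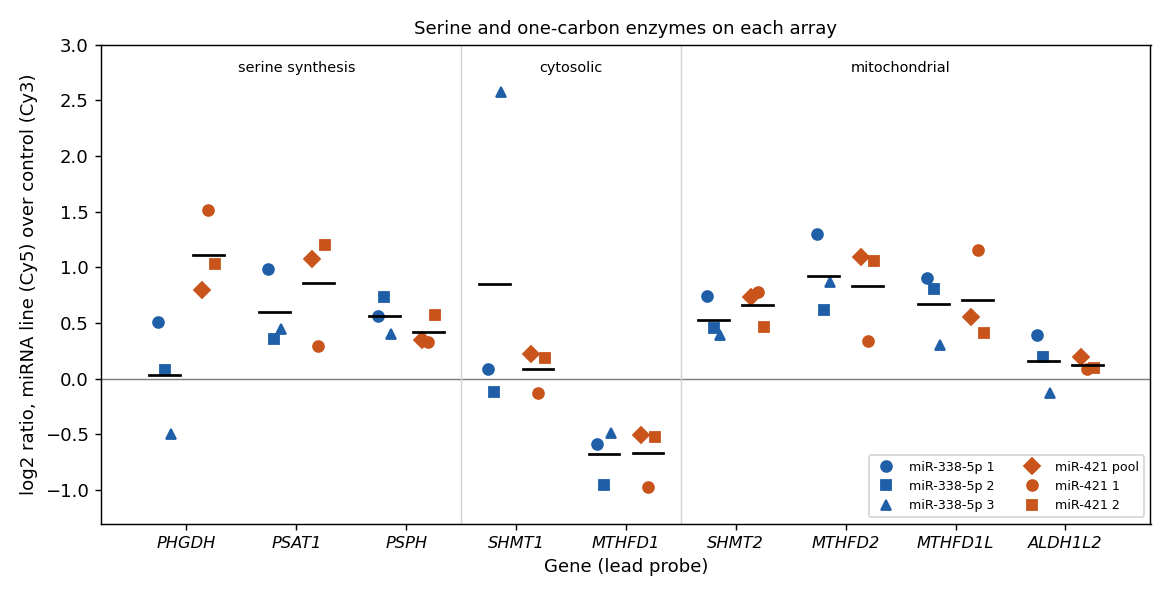
Log2 ratio of the microRNA line over control (vertical axis) for the lead probe of each of the 9 genes (horizontal axis). Each point is 1 array, blue for miR-338-5p and orange for miR-421, and each bar is the mean of 3 arrays. MTHFD1 lies below 0 on all 6 arrays, and SHMT1 is at 2.57 on miR-338-5p replicate 3 alone.

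PHGDH, which commits 3-phosphoglycerate to serine synthesis, was the member whose values differed most clearly by line. Its ratios were 0.51, 0.08 and -0.49 on miR-338-5p replicates 1, 2 and 3, and 0.80, 1.51 and 1.03 on the miR-421 pool, replicate 1 and replicate 2. All 3 miR-421 arrays lay above all 3 miR-338-5p arrays, and no other member separated the lines in this way. Over all probes, 19.8% separated the lines in either direction and 9.73% with miR-421 higher. The mean was 1.11 ± 0.37 for miR-421 (SD, n = 3; 2.16-fold; limma adjusted p = 0.0197), a rise. It was 0.03 ± 0.50 for miR-338-5p (SD, n = 3; adjusted p = 0.949), and it was -0.12 when each array was centred on its median instead. The difference between lines was -1.08 with a 95% interval of -1.81 to -0.36. Its unadjusted limma p was 0.0108, the only member with one under 0.05, where 13.7% of probes have one. After adjustment it did not pass (adjusted p = 0.225), and 0 of the 9 genes did, beside 0.0473% of all probes. The miR-421 call was lost without miR-421 replicate 1 (0.91, adjusted p = 0.0683) or replicate 2 (1.15, adjusted p = 0.0887).

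PSAT1, the transaminase of the next step, was above 0 on all 6 arrays. Its ratios were 0.99, 0.36 and 0.45 for miR-338-5p, and 1.08, 0.30 and 1.20 for the miR-421 pool and replicates 1 and 2. The lines overlapped, and miR-421 replicate 1 was the lowest array of all. The mean was 0.86 ± 0.49 for miR-421 (SD, n = 3; limma adjusted p = 0.0342), a rise, and 0.60 ± 0.34 for miR-338-5p, which did not pass (adjusted p = 0.125). The miR-421 call was lost without the pool (0.75, adjusted p = 0.126), without replicate 2 (0.69, adjusted p = 0.155) and without miR-338-5p replicate 3 (adjusted p = 0.0551). Without miR-421 replicate 1 the miR-338-5p value passed (adjusted p = 0.046).

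PSPH, the phosphatase that releases serine, had the narrowest spread of the 3 synthesis genes. It stood at 0.56, 0.73 and 0.40 for miR-338-5p, and at 0.35, 0.33 and 0.58 for miR-421. All 6 values were positive and the lines overlapped. PSPH rose in both lines, by 0.56 ± 0.17 with miR-338-5p (SD, n = 3; limma adjusted p = 0.0205) and by 0.42 ± 0.14 with miR-421 (adjusted p = 0.0235). Its miR-421 call was lost without any of the 3 arrays of that line (adjusted p = 0.0631 without the pool, 0.0547 without replicate 1, 0.115 without replicate 2). Of the 3 genes of serine synthesis, then, 3 rose with miR-421 and 1 with miR-338-5p.

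MTHFD1 is the cytosolic enzyme that joins formate to folate and interconverts the folate-bound carbon units. It was the only member below 0 on all 6 arrays, as were 17.2% of all probes. The ratios were -0.59, -0.95 and -0.49 for miR-338-5p, and -0.50, -0.97 and -0.53 for the miR-421 pool and replicates 1 and 2. The lines overlapped almost fully. MTHFD1 fell by 0.68 with miR-338-5p (SD 0.24, n = 3; 0.626-fold; limma adjusted p = 0.0332) and by 0.67 with miR-421 (SD 0.27, n = 3; 0.629-fold; adjusted p = 0.0201). The interval of the difference between lines ran from -0.45 to 0.43. Without miR-421 replicate 1 the miR-421 value was -0.52 (adjusted p = 0.0579), and without replicate 2 it was -0.74 (adjusted p = 0.078).

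SHMT1, the cytosolic enzyme that splits serine into glycine and a carbon unit, was near 0 on 5 arrays and high on 1. Its lead probe gave 0.09, -0.12 and 2.57 on miR-338-5p replicates 1, 2 and 3, and 0.22, -0.13 and 0.19 for miR-421. A second probe, elsewhere in the gene, gave -0.04, -0.20 and 2.45, then 0.31, 0.07 and 0.68. The high value on replicate 3 was therefore seen on both probes. It lay in Cy5, where the log2 signal of the lead probe was 11.76 against 9.22 and 8.97 on the other 2 arrays of the line, while Cy3 varied by 0.18 over all 6 arrays. The range of SHMT1 over the 3 miR-338-5p arrays, 2.70, was larger than at 99.8% of probes. Neither line's mean passed (0.85 ± 1.499, limma adjusted p = 0.344, and 0.09 ± 0.19, adjusted p = 0.919; SD, n = 3), and the first was -0.02 without replicate 3. The miR-421 mean was -0.02 with median centring.

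The second SHMT1 probe is printed because it shows that 2 separate stretches of the transcript gave the same pattern (hg19 chr17:18236513-18236572, minus strand).
SHMT1, A_24_P205364: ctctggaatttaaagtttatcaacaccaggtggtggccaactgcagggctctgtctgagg
In all, 9 probes were above 2 on miR-338-5p replicate 3 and within 0.5 of 0 on replicates 1 and 2, a selection made after the SHMT1 values were seen. Besides both SHMT1 probes they were those of AMOT (3.84), CTSV (5.18), EDN2 (2.68), INHBA (2.07), LRFN2 (2.36), ENST00000454614 (2.93) and lnc-ZNF169-1 (2.60). No other serine or one-carbon gene was among them.

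**Figure D2:**
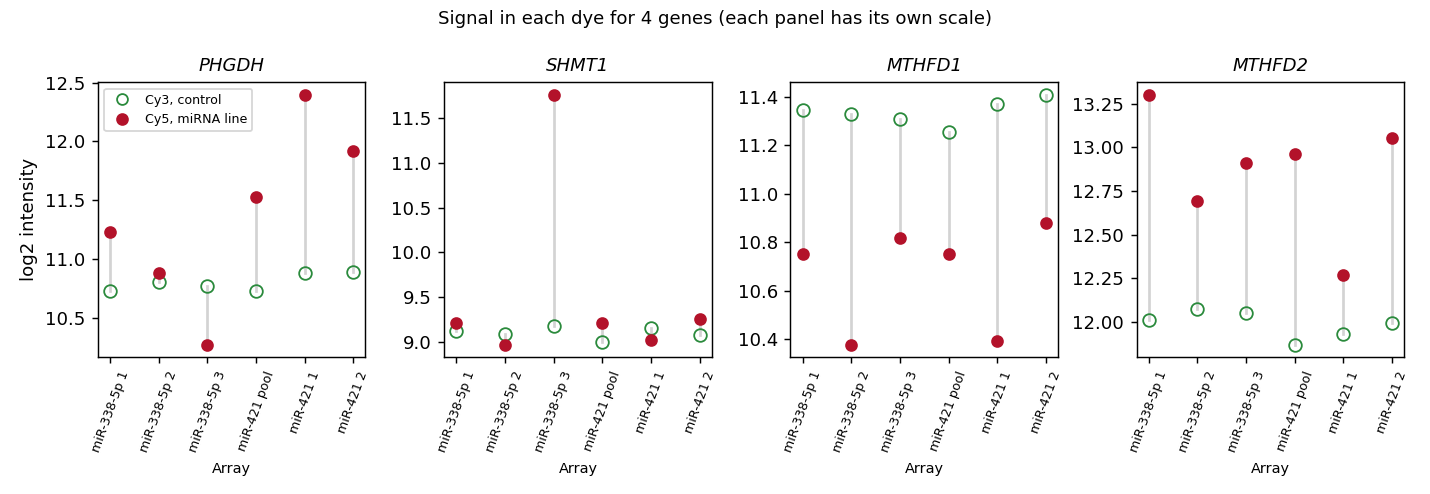
Log2 intensity (vertical axis, a separate scale in each panel) on the 6 arrays (horizontal axis) for PHGDH, SHMT1, MTHFD1 and MTHFD2. Open green circles are the control in Cy3 and filled red circles are the microRNA line in Cy5. The SHMT1 control signal varies by 0.18, while its Cy5 signal reaches 11.76 on miR-338-5p replicate 3.

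SHMT2 is the mitochondrial counterpart of SHMT1 and usually supplies most of the serine-derived carbon units of dividing cells. Its ratios were 0.74, 0.46 and 0.40 for miR-338-5p, and 0.73, 0.78 and 0.46 for miR-421. The 6 arrays lay within a narrow positive band in which the lines overlapped. SHMT2 rose by 0.53 ± 0.19 with miR-338-5p (SD, n = 3; 1.45-fold; limma adjusted p = 0.0299) and by 0.66 ± 0.17 with miR-421 (SD, n = 3; 1.58-fold; adjusted p = 0.0101). The miR-421 call passed in 6 of 6 refits that left out an array. It was lost with the ratio of the scanner software (0.49, adjusted p = 0.0732) and with the authors' deposited table (0.49, adjusted p = 0.0662).

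MTHFD2, the mitochondrial dehydrogenase and cyclohydrolase that is abundant in embryonic and tumour cells, stood at 1.30, 0.61 and 0.87 for miR-338-5p, and at 1.09, 0.34 and 1.06 for the miR-421 pool and replicates 1 and 2. It was positive on all 6 arrays, and the array with the lowest value was miR-421 replicate 1, as for PSAT1. MTHFD2 rose by 0.93 ± 0.35 with miR-338-5p (SD, n = 3; 1.90-fold; limma adjusted p = 0.0391) and by 0.83 ± 0.43 with miR-421 (SD, n = 3; 1.78-fold; adjusted p = 0.0306). The miR-421 call was lost without the pool (0.70, adjusted p = 0.114), without replicate 2 (0.72, adjusted p = 0.143) and without miR-338-5p replicate 3 (adjusted p = 0.0522). The array carries this probe in 10 spots, of which 4 over all arrays were left out as outliers. Spots of 1 array differed with an SD of 0.033 to 0.060, far less than the SD of 0.35 and 0.43 between arrays of a line.

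**Figure D3:**
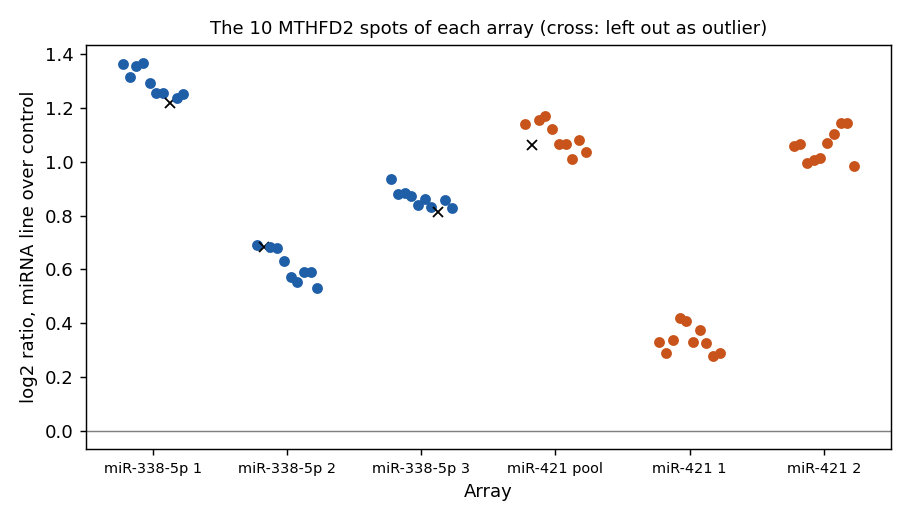
Log2 ratio over control (vertical axis) of the 10 MTHFD2 spots on each array (horizontal axis), blue for miR-338-5p, orange for miR-421, with a black cross for a spot left out. The spots of an array lie close together, from a mean of 0.34 on miR-421 replicate 1 to 1.30 on miR-338-5p replicate 1.

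MTHFD1L, the mitochondrial enzyme that releases formate from folate, had 3 probes. The lead probe gave 0.90, 0.81 and 0.30 for miR-338-5p, and 0.55, 1.15 and 0.41 for the miR-421 pool and replicates 1 and 2. All 6 values were positive. MTHFD1L rose with miR-421 (0.71 ± 0.39, SD, n = 3; limma adjusted p = 0.0384), and its miR-338-5p mean of 0.67 ± 0.32 did not pass (adjusted p = 0.0686). Without miR-421 replicate 1 the miR-421 value was 0.48 (adjusted p = 0.113) and the miR-338-5p value passed (adjusted p = 0.0333); without the pool, replicate 2, or miR-338-5p replicate 1 or 2, the miR-421 adjusted p was 0.0882, 0.0873, 0.0582 and 0.055. The other probes gave 0.19 and 0.07 for miR-338-5p, and 0.10 and 0.12 for miR-421, and none of these passed. The probes of MTHFD1L thus disagreed, and with the mean of its probes in place of the lead probe the values were 0.31 for both lines and the miR-421 call was lost (adjusted p = 0.102). It was also lost with the authors' deposited table (0.60, adjusted p = 0.0927), with no filter (adjusted p = 0.0781), with the line's own arrays alone (0.0691) and with a trended and robust variance (0.0506).

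The 3 MTHFD1L probes are printed to show where they lie (hg19, plus strand). The first spans 2167 bases of the genome (chr6:151206858-151209024), so it crosses a splice junction, and the others lie further along the gene at chr6:151413640-151413699 and chr6:151358151-151358210.
MTHFD1L, A_23_P214907: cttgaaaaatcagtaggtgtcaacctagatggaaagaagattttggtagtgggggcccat
MTHFD1L, A_24_P235049: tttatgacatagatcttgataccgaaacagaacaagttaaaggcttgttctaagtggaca
MTHFD1L, A_21_P0013574: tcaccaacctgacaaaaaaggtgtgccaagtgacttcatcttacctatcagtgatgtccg

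ALDH1L2, the mitochondrial enzyme that oxidises formyl folate to carbon dioxide, was dim. Its Cy3 log2 signal was 6.07 to 6.32, beside mean signals of 6.07 to 7.13 for the leukocyte markers. Its ratios were 0.40, 0.20 and -0.13 for miR-338-5p, and 0.20, 0.09 and 0.09 for miR-421. Neither mean passed (0.16 ± 0.27, limma adjusted p = 0.386, and 0.13 ± 0.06, adjusted p = 0.407; SD, n = 3). The offset of 50 that is added to every signal draws dim ratios toward 0. With plain background subtraction the means were 0.53 and 0.48, and neither passed (adjusted p = 0.31 and 0.261). Of the 4 mitochondrial genes, 3 rose with miR-421 and 2 with miR-338-5p.

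The mitochondrial enzymes were next set against their cytosolic counterparts on each array, as the difference of their log2 ratios. MTHFD2 exceeded MTHFD1 by 1.89, 1.57 and 1.35 on the miR-338-5p arrays and by 1.60, 1.31 and 1.59 on the miR-421 arrays. The mean was 1.55 ± 0.21 (SD, n = 6), a 2.93-fold shift between these genes, above 0 on 6 of 6 arrays. The exact two-sided sign-flip test gave p = 0.03125, the smallest that 6 arrays allow, and 0.0625 after adjustment over the 4 pairs, which does not pass. MTHFD1L exceeded MTHFD1 by 1.49, 1.76 and 0.79, then by 1.06, 2.13 and 0.94, with a mean of 1.36 ± 0.52 and the same exact p and adjusted p. These 2 pairs share MTHFD1. The pair with MTHFD1L rests on the lead probe of that gene, and its other probes had lower ratios. The mean of that pair ranged from 0.98 to 1.66 over 15 alternatives, with the same sign in each. For all 4 pairs, without dye swaps, a dye bias of either probe enters the difference on every array. The 6 arrays also share control RNA in Cy3, so they are not independent of each other.

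SHMT2 exceeded SHMT1 on 5 of 6 arrays, by 0.65, 0.58, 0.51, 0.91 and 0.28, and lay below it on miR-338-5p replicate 3 (difference of -2.18). The mean of 0.13 ± 1.15 (SD, n = 6) did not differ from 0 beyond that spread (exact sign-flip p = 0.875), and without that array it was 0.59. ALDH1L2 and its cytosolic counterpart ALDH1L1, which is no member, differed by a mean of 0.02 ± 0.23 (exact sign-flip p = 0.844). ALDH1L1 was dim, with a Cy3 log2 signal of 5.84 to 5.99. None of the 4 pairs differed between lines by the exact permutation test (p from 0.4 to 1; 3 arrays against 3 cannot go below 0.1).

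**Figure D4:**
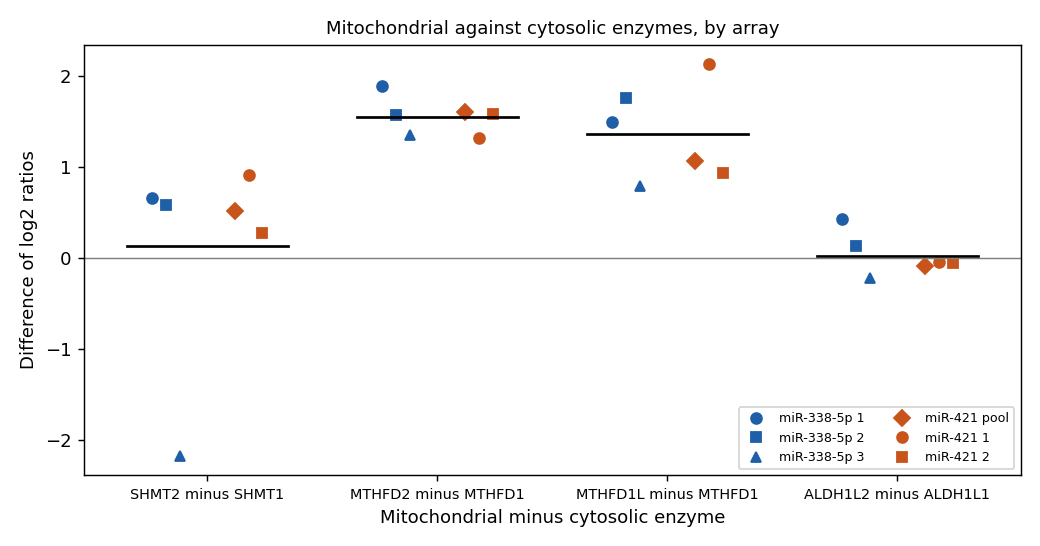
Log2 ratio of the mitochondrial enzyme minus that of its cytosolic counterpart (vertical axis) for 4 pairs (horizontal axis), with 1 point per array, blue for miR-338-5p and orange for miR-421, and a bar at the mean of 6 arrays. Both pairs with MTHFD1 lie above 0 on 6 of 6 arrays, and SHMT2 minus SHMT1 is at -2.18 on miR-338-5p replicate 3.

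Among the members, PSAT1, PSPH, SHMT2, MTHFD2 and MTHFD1L were above 0 on all 6 arrays, as were 12.7% of all probes. The control signal of each lead probe varied by 0.15 to 0.39 over the 6 arrays. The mean over the 9 genes was 0.54, 0.24 and 0.43 on miR-338-5p replicates 1, 2 and 3, and 0.50, 0.38 and 0.50 on the miR-421 pool and replicates 1 and 2. Of 3280 genes compared, those with a profile most like this mean included ADCYAP1 (Pearson r = 0.989 over 6 arrays), ARID1A (0.988), KDELC2 (0.983) and TSC22D3 (0.978). These correlations are a description over 6 arrays that share a control.

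Promoter windows, 250 bases before to 50 after the start, were given by RefSeq (GRCh38.p14) for 6 of the 9 genes. The motif TGATGNAA, the core of the element that ATF4 binds with a C/EBP partner, was searched on both strands. It was found in MTHFD1L among these 6 genes, and in 3.62% of 35116 windows. The E-box CACGTG, which MYC and related factors can bind, was found in MTHFD1L and MTHFD1, and in 7.26% of windows. The motifs share no letters in the MTHFD1L window. Of its 4 windows, 3 hold both, but these 3 overlap and hold the same matches. In the window that begins furthest upstream, the ATF4 motif lies after the start. A stretch of 100 bases is printed for these genes, with the motifs in capitals. For MTHFD1L it runs from 200 to 101 bases before the start (chr6:150866286-150866385), and for MTHFD1 from 100 to 1 base before it (chr14:64388253-64388352), both on the plus strand. The matches are a description of the letters and no evidence of binding.
MTHFD1L: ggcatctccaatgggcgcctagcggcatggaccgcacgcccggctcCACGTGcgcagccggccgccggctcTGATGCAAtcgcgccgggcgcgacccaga
MTHFD1: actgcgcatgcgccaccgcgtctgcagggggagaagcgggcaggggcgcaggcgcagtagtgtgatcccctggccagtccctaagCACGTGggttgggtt

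The gene for ATF4 itself rose in both lines. The rise was 0.98 ± 0.11 with miR-338-5p (SD, n = 3, limma adjusted p = 0.00831) and 0.80 ± 0.23 with miR-421 (adjusted p = 0.00712). Of 3 tested regulators of serine synthesis genes, only ATF4 passed in either line. MYC was at -0.11 ± 0.24 with miR-338-5p and -0.88 ± 1.15 with miR-421. KDM4C was at 0.64 ± 0.27 and 0.41 ± 0.42, and NFE2L2 was not tested. In each line the count of 1 became 2 without miR-421 replicate 1, and 0 with the scanner software's ratio or the authors' table. Of 13 other ATF4 targets outside the pathway, 9 rose with miR-338-5p and 11 with miR-421, where 3.79% and 9.19% of all tested probes rose. This list was chosen with earlier results of these data known. Of these targets, 0 fell in either line, in the main fit and under each alternative run. Among all tested probes, 5.22% fell with miR-338-5p and 12.5% with miR-421. The medians of the 13 targets were 1.19 and 1.24. CHAC1, which breaks down glutathione, rose by 2.01 ± 0.38 and 2.23 ± 0.29, and ASNS, the asparagine synthetase, by 1.19 ± 0.58 and 1.14 ± 0.45. The count of risen targets for miR-338-5p was 0 with a trended and robust variance, and that for miR-421 was 7 without miR-421 replicate 2. ATF4 passed in 15 of 18 alternatives in each line; its miR-421 adjusted p was 0.0525 without miR-421 replicate 2.

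The counts of the wider lists below are to be read against the shares of all tested probes, 3.79% higher and 5.22% lower for miR-338-5p and 9.19% and 12.5% for miR-421, and several are near them. Of 8 genes for serine and glycine transport, 1 rose with miR-338-5p; with miR-421, 3 rose and 2 fell. Both miR-421 counts were 0 without miR-421 replicate 2. The lower one was 1 without the pool, miR-338-5p replicate 1 or miR-338-5p replicate 3. The miR-338-5p count was 0 with median centring, outlier spots kept, a trended and robust variance or the mean of a gene's probes. It was 2 with plain background subtraction, no background correction or the scanner software's ratio. SLC6A9, a glycine transporter, rose in both lines (1.04 ± 0.16 for miR-338-5p, SD, n = 3, limma adjusted p = 0.0073; 1.14 for miR-421, adjusted p = 0.00516). The pool array is missing from that miR-421 value because its spot was left out as an outlier. With the spot kept the value was -0.17. The miR-338-5p call of SLC6A9 passed in 13 of 18 alternatives, with values of 0.57 to 1.29 and limma adjusted p up to 0.447. SLC1A5, which carries neutral amino acids, rose with miR-421 (1.52 ± 0.25, adjusted p = 0.01), and SLC38A2 and SLC38A1 fell there (-1.49 ± 0.57 and -1.35 ± 0.85). The SLC38A1 value was -0.86 without miR-421 replicate 1, and its call passed in 2 of 6 refits that left out an array. Their differences between lines did not pass (adjusted p of 0.152, 0.149 and 0.275).

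Of 14 other folate enzymes and carriers, 1 rose and 1 fell in each line, which is near those shares. Both miR-338-5p counts were 0 without any 1 of that line's arrays or miR-421 replicate 2 and 2 without miR-421 replicate 1. Those for miR-421 were 0 without replicate 2, and 2 higher and 0 lower without replicate 1; the lower one was 2 without miR-338-5p replicate 3. TYMS, which makes thymidylate from a folate-bound carbon unit, fell in both (-0.80 ± 0.26, limma adjusted p = 0.0293, and -0.82 ± 0.31, adjusted p = 0.0157; SD, n = 3), and it passed in 6 and 15 of 18 alternatives. MTHFS, which returns formyl folate to the active pool, rose with miR-338-5p (0.59 ± 0.07). Of 11 purine synthesis genes, 1 fell with miR-338-5p and 2 with miR-421, and 0 rose, also near those shares. The miR-338-5p count was 4 without miR-421 replicate 1, and the miR-421 count 1 without miR-421 replicate 1 or 2. PRPS2, which makes the activated ribose, fell in both lines (-0.97 ± 0.20 and -0.82 ± 0.10).

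Of 8 tested methionine cycle genes, 0 rose and 1 fell with miR-338-5p, and 2 rose and 2 fell with miR-421. The miR-421 counts were 0 and 0 without replicate 2 and 1 and 1 without replicate 1, and the lower one was 1 without the pool. The miR-338-5p count was 0 without any 1 of that line's arrays, the pool or miR-421 replicate 2, and 2 without miR-421 replicate 1. MTAP, the methionine salvage phosphorylase, fell in both (-0.68 ± 0.13 and -0.74 ± 0.37). GNMT, a glycine methyltransferase, rose with miR-421 (0.97 ± 0.16). Of 12 genes that use serine or glycine, 1 rose and 0 fell with miR-338-5p, and 1 rose and 3 fell with miR-421. The count of 3 was 0 without any 1 of the miR-421 arrays. The miR-421 higher count was 0 without replicate 1, replicate 2 or miR-338-5p replicate 1, and the miR-338-5p one was 0 without any 1 of that line's arrays. SDSL, a serine dehydratase-like enzyme, rose in both (0.88 ± 0.11 and 0.46 ± 0.26).

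The 6 glycolysis genes next to the serine branch went 0 up and 2 down with miR-338-5p, and 3 up and 0 down with miR-421. The count of 3 was 0 without the pool, without replicate 2 and with the scanner software's ratio, and 1 without replicate 1. The count of 2 was 0 with that ratio, the authors' deposited table and a trended and robust variance, and 1 without miR-338-5p replicate 1 or 2, the pool or miR-421 replicate 2. ENO1, the enolase, fell with miR-338-5p (-0.71 ± 0.08, limma adjusted p = 0.0073) and was at 0.13 ± 0.12 with miR-421. PGK1, which makes 3-phosphoglycerate, rose with miR-421 (0.63 ± 0.17, adjusted p = 0.0261) and was at -0.44 ± 0.34 with miR-338-5p. The differences between lines did not pass (adjusted p = 0.0688 and 0.123).

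**Figure D5:**
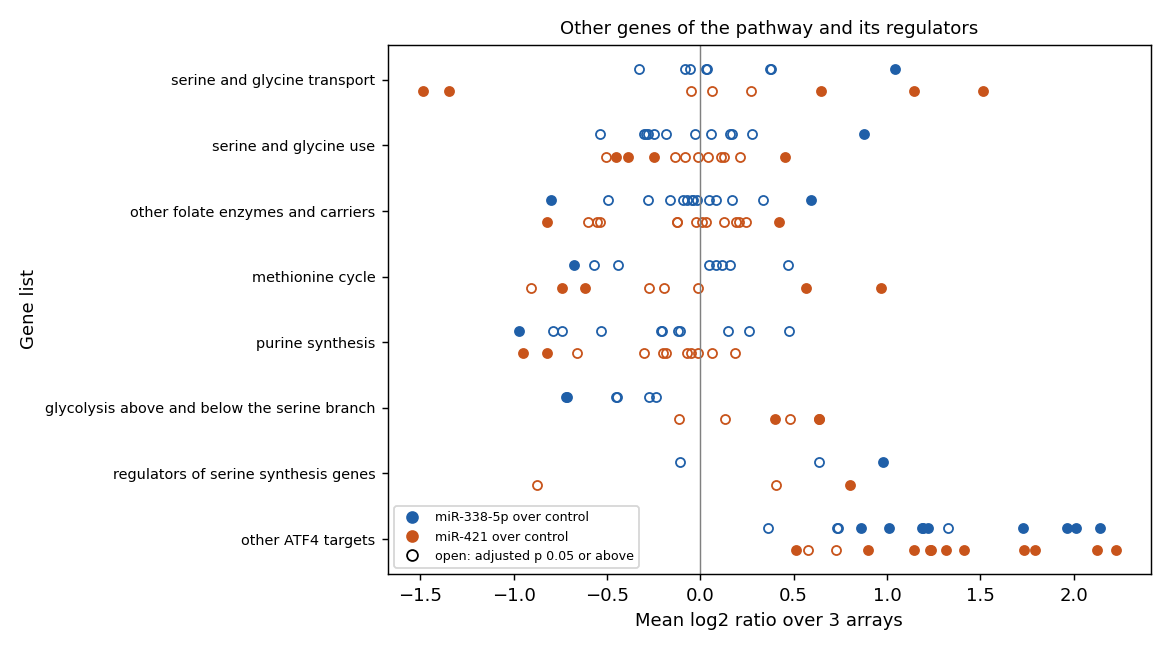
Mean log2 ratio over control (horizontal axis) of each tested gene in 8 lists around the pathway (vertical axis), blue for miR-338-5p and orange for miR-421. Filled points have a limma adjusted p under 0.05. Every point of the ATF4 targets lies above 0, and the other lists hold points on both sides of 0.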

How the data were processed

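Per the file headers, the authors scanned the arrays (1 slide) and read them with Feature Extraction 11.5.1.1. The deposited intensity values are unnormalized spot means and local background medians. The deposited log10 ratios of Cy5 over Cy3 were background-subtracted and dye-normalized by that software, per the file headers. The authors' deposited table holds log2 ratios whose normalization is not given in the sources used here. Both were alternatives only.

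Intensities were corrected by normexp (offset 50) and loess (control spots without weight). Outlier spots were left out and spots of a probe averaged. A probe stayed in if 3 or more of the 6 arrays had it well above background in Cy3 or Cy5 (27503 of 58201). All 6 arrays entered 1 limma 3.58.1 fit (R 4.3.3), with a mean per line, eBayes and two-sided tests adjusted by Benjamini-Hochberg over all probes at 0.05. The fit was tested on simulated data. The lead probe of a gene is its brightest on average. Up to 4 genes of each wider list were named, by size among those past the threshold. ASNS, ALDH1L1, MYC, KDM4C and NFE2L2 were named besides. The members and lists were chosen with earlier results of these data known. Pairs were tested by exact sign flips over arrays. Without dye swaps a probe's dye bias enters both comparisons with control and the differences between paired genes. The number of arrays limits the precision.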

Additional observations from a re-analysis of the deposited data

Results flagged for a closer look

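ENO1 was below 0 on all 3 miR-338-5p arrays and above 0 on all 3 miR-421 arrays, with a difference of -0.84 (limma adjusted p = 0.0688, which does not pass). PGK1 did the same, with a difference of -1.08 (adjusted p = 0.123). The glycolysis genes GAPDH and PKM also did so, with differences of -0.64 and -0.94 (limma adjusted p = 0.123 and 0.152). Over all probes, 19.8% separated the lines without overlap in either direction, so the trait is not particular to these genes.

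In the control dye, 4 of the named genes had 1 array far from the other 5. The gap was 0.942 of the whole range for SLC6A9, whose log2 signal was 12.03 on the miR-421 pool array and 8.14 to 8.36 elsewhere; that spot was left out of its ratio. It was 0.719 for GCSH (12.53 on miR-421 replicate 1, otherwise 12.75 to 12.84), 0.679 for PRPS2 (7.40 on that array, otherwise 7.55 to 7.62) and 0.638 for SLC38A1 (9.92 on that array, otherwise 10.03 to 10.08). Chance flags about 1 in 20 such groups. None of the 9 serine and one-carbon genes stood out in this way.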

How the results depend on the processing

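Members passing for miR-338-5p, 3 higher and 1 lower, became 1 and 0 with plain background subtraction and with median centring. They became 0 and 0 with the scanner software's own ratio, with the authors' table, with a trended and robust variance, or with only the line's own arrays. The lower count was also 0 with no filter. Members passing for miR-421, 6 higher and 1 lower, became 3 and 0 with median centring and with the authors' table. The higher count was 3 with no filter and with only the line's own arrays, and the lower count 0 with the scanner software's ratio. Without 1 array at a time the counts ranged from 0 to 5 and 0 to 1 for miR-338-5p, and from 1 to 5 and 0 to 1 for miR-421. The highest miR-338-5p count came without miR-421 replicate 1, and the lowest miR-421 count without miR-421 replicate 2. The count for the difference between lines was 0 under each. Arrays with the same number did not deviate together (r of -0.14 for number 1 and -0.211 for number 2), the pool carries no number, and the other combinations of arrays ranged from -0.153 to 0.197. With the replicate block the miR-338-5p counts were 2 and 0, and the miR-421 counts 4 and 1. Of the recomputed counts of the wider lists, 136 moved by over 1.5 times and 440 did not. Where a count moved, the cause was not tested.

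With only probes well above background in both dyes on all arrays, MTHFD2 minus MTHFD1 (1.55) and MTHFD1L minus MTHFD1 (1.36) passed at an adjusted p of 0.0469, because 3 pairs were tested. SHMT2 minus SHMT1 turned to -0.25 with the authors' table and -0.0954 with the ratio of the scanner software, and ranged from -0.031 (without miR-421 replicate 1) to 0.587 (without miR-338-5p replicate 3). ALDH1L2 minus ALDH1L1 turned to -0.35 with background subtraction, -0.0095 with median centring and -0.56 with the scanner software's ratio and the authors' table alike, and ranged from -0.0583 (without miR-338-5p replicate 1) to 0.0714 (without its replicate 3).

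The other sign changes were of values that had not passed, but for SLC6A9 with miR-421, which was -0.17 with outlier spots kept. With median centring, PHGDH with miR-338-5p was -0.12 and SHMT1 with miR-421 was -0.0227. Leaving out arrays gave PHGDH with miR-338-5p a range of -0.21 to 0.291, and SHMT1 one of -0.0166 to 1.33. The difference between lines turned for MTHFD1 (0.0129 with background subtraction, 0.0132 with none; -0.16 to 0.13 over arrays left out, with 0.0743 and 0.0633 without the pool and miR-421 replicate 2). It turned for MTHFD2 (-0.0874 with median centring; as low as -0.15 without miR-421 replicate 1 and -0.0908 without miR-338-5p replicate 1), ALDH1L2 (-0.0042 with median centring; -0.0923 to 0.17), MTHFD1L (3e-04 with the mean of its probes; -0.18 to 0.19, with 0.15 without miR-338-5p replicate 3) and SHMT1 (-0.11 to 1.24). For miR-338-5p, FPGS turned to 0.0351 (background subtraction), 0.0233 (no correction), 0.0427 (scanner software's ratio), 0.0549 (authors' table) and 0.0022 (mean of probes), and ranged from -0.0676 to 0.0431 over arrays left out. SLC38A2 turned to 0.0485 (scanner software's ratio), 0.25 (authors' table), 0.10 (mean of probes) and 0.0549 (without replicate 1). AHCY turned to -0.0935, SLC1A5 to -0.17 and SLC38A1 to -0.14 with median centring. SLC1A5 ranged from -0.29 to 0.2986 and SLC38A1 was -0.19 without replicate 2.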
